A study of Mus musculus with 6 samples.

Results

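The 9 genes described here, Dgat1, Tecr, Pltp, Acads, Fasn, Acaca, Acly, Srebf1 and Srebf2, make, transfer, burn or control the synthesis of lipids, and were followed after knockdown of Son in mouse embryonic stem cells. They were chosen by symbol, with changes in these same libraries already known, out of 12134 genes in the deposited intron tables. Their values in the comparison of Son siRNA with control siRNA are therefore a description. Calls and adjusted p given for them come from fits over all introns or genes. Because of the choice, they are not independent evidence about these genes. The tables listed 174 distinct introns of these genes out of 85015 in all, and 170 of the 174 were listed in all 4 total RNA libraries. Only 7 of the 9 genes act in building lipids or in switching their synthesis on: Pltp carries phospholipids between particles, and Acads belongs to fatty acid breakdown.

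The study transfected E14 mouse embryonic stem cells (129/Ola background), grown in medium with serum and leukemia inhibitory factor, with Son siRNA or control siRNA in Lipofectamine 2000. RNA was extracted 24 hours after transfection. Total RNA depleted of ribosomal RNA gave 2 control libraries and 2 Son siRNA libraries, and Nanopore cDNA gave 1 library of each kind. Nothing in the labels says that the 2 libraries of a group came from separate cultures, so the spread between them may be technical. Both long-read samples are described with the same total RNA knockdown sample as their starting material, so no long-read library was paired with a total RNA library.

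Son is a large protein of nuclear speckles, the bodies where splicing factors gather, and is known as a cofactor for the removal of introns with weak splice sites. Fatty acid synthesis starts from citrate in the cytosol, runs through acetyl-CoA and malonyl-CoA to palmitate, and continues by elongation in the endoplasmic reticulum, where fatty acids are also joined to glycerol as triglycerides for storage. The transcription factors SREBP-1 and SREBP-2, encoded by Srebf1 and Srebf2, switch on the fatty acid and cholesterol genes. Pluripotent cells synthesise much of their own fatty acid for membranes.

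The exons around the introns that changed most are shown first, read from the GENCODE M21 transcript sequences (GRCm38 annotation, sense strand, 5′ to 3′). The first 2 sequences are from Dgat1-201 and span junctions with different outcomes. The capitals mark the 3 bases on either side of each exon junction. In the first the capitals mark, in order, where introns 7, 8, 9 and 10 are removed. In the second they mark introns 14 and 15.

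Dgat1 exons 8 to 10 with 40 bases of exons 7 and 11: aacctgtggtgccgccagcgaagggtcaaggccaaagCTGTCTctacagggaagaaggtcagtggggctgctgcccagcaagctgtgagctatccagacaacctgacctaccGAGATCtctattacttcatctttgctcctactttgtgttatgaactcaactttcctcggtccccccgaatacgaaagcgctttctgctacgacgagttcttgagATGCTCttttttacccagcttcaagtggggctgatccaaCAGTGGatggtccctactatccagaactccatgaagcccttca

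Dgat1 exons 14 to 16: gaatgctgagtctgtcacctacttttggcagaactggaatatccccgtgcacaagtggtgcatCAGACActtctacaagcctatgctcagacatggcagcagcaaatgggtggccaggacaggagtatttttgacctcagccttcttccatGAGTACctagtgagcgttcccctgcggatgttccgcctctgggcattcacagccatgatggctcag

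The other two sequences are the alternative forms of Tecr that the long reads told apart. Capitals mark exon 4, which has 45 nt and 71.1% GC and is present in Tecr-201. It is missing from Tecr-203, in which exon 3 is joined to exon 5.

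Tecr exons 3, 4 and 5: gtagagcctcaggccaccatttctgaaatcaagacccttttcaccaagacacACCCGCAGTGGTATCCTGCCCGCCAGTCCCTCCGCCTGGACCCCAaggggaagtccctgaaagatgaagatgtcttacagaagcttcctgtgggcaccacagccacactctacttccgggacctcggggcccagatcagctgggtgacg

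Tecr exons 3 and 5 joined: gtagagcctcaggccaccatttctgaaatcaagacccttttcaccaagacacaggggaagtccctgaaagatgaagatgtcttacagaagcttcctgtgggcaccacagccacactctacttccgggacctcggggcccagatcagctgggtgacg

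Summed over 5′ junctions, the split reads came to 16012286 and 10640247 in the controls and to 14978479 and 10556187 after Son siRNA. The long-read control held 3080426 reads and its Son siRNA counterpart 1874851. Spliced reads of a gene are given as CPM, its split reads at 5′ junctions scaled to library size with TMM factors. Son itself, the target, had a CPM of 283 and 314 in the controls and 93.5 and 102 after Son siRNA. Its long reads numbered 217 in the control and 37 after Son siRNA. Of 14 embryonic stem cell markers 13 were listed, and their summed CPM was 5991 and 5908 in the controls and 5958 and 5664 after Son siRNA. Single markers moved in both directions: Tfcp2l1 had a CPM of 816 and 795 in the controls and 906 and 981 after Son siRNA. Fgf4 had 71.9 and 69.1 against 58.4 and 48.9. At an adjusted p under 0.05, edgeR gave 1 of the 13 fewer and 1 more spliced reads, against 6.76% and 1.96% of tested genes. In splicing efficiency, explained below, 1 was lower and 0 higher, against 6.98% and 0.128%. Sox2 was not listed in the intron tables and had 112 and 118 long reads. Of 5 trophoblast markers 2 were listed, Eomes and Tfap2c, with a summed CPM of 7.76 and 10.2 in the controls and 8.88 and 9.53 after Son siRNA. The trophoblast list had 41 control and 30 knockdown long reads, of which Elf5 had 30 and 24, while Cdx2 and Hand1 were not listed and had no long read. Of 5 endoderm markers 2 were listed, Gata4 and Sox7, with a summed CPM of 3.82 and 3.67 against 3.80 and 2.89, and 18 and 7 long reads, while Gata6, Sox17 and Foxa2 had none. Of 5 fibroblast markers 1 was listed, Thy1, with a CPM of 1.88 and 1.64 against 2.17 and 1.16, and Thy1 and Pdgfrb had 9 and 10 long reads together, while Col1a1, Col1a2 and Col3a1 had none. None of 5 adipocyte markers was listed or had a long read. None of 4 hepatocyte markers was listed, and of these Apoa1 had 12 and 4 long reads and Alb, Ttr and Serpina1a none. The part of these markers in the results was not tested. The libraries are of bulk RNA, so fewer cells with an RNA and less of it per cell cannot be told apart.

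Splicing efficiency is the fraction of reads at the 2 junctions of an intron that are split, meaning that the read joins the exons. An unsplit read runs from exon into intron and comes from RNA that still holds the intron. The change was measured as a log2 odds ratio, which is positive where Son siRNA left more unsplit reads for each split read. An intron or gene is called where edgeR's quasi-likelihood test, adjusted by Benjamini-Hochberg over all 63309 tested introns or all tested genes, gave an adjusted p under 0.05. Across all tested introns the median log2 odds ratio was 0.12.

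Of the 174 introns of the 9 genes, 167 passed the filter of 10 split and 10 unsplit reads. Splicing efficiency was called lower in 24 of them, or 14.4%, against 1.71% of all tested introns, and in 0 was it called higher, against 0.0442%. At an unadjusted p under 0.05, edgeR gave 46 lower and 1 higher, and DESeq2 gave 35 lower and 1 higher. At an adjusted p under 0.05, DESeq2 called 14 lower and 0 higher. In 74 of the 167 both Son siRNA libraries lay below both controls, against 24.3% of all tested introns. In 12 both lay above, against 13.1%, and these were 7 introns of Acaca, 4 of Acly and 1 of Srebf2. The called introns were 5 in Dgat1, 7 in Pltp, 5 in Acads, 5 in Fasn, 1 in Tecr and 1 in Srebf1, and 0 in Acaca, Acly and Srebf2. Without the first control library 4 member introns were called, which were Dgat1 introns 7, 8 and 9 and Tecr intron 7. The genes were selected on this contrast, so these counts describe them and show nothing about lipid genes in general.

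Dgat1 (ENSMUSG00000022555, chromosome 15, minus strand) encodes the enzyme that joins the final fatty acid to diacylglycerol to make triglyceride. The tables listed 8 of the 16 introns of Dgat1-201. 4 introns in a row, numbers 7 to 10, were mostly removed in the controls and mostly kept after Son siRNA. Intron 9, at chr15:76387629-76387717 in the tables (GRCm39 per the submitters' processing notes) and 89 nt long, had splicing efficiencies of 0.894 and 0.851 in the controls, falling to 0.317 and 0.203 in the knockdown libraries. This was the largest fall among the listed introns of Dgat1, with a log2 odds ratio of 4.34 (standard error 0.64).

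The neighbours of intron 9 behaved alike. Intron 7, at chr15:76387981-76388064, went from 0.879 and 0.711 to 0.272 and 0.254. Intron 8, at chr15:76387822-76387905, went from 0.850 and 0.795 to 0.265 and 0.191. Intron 10, at chr15:76387516-76387589, went from 0.822 and 0.628 to 0.256 and 0.137. In none of these introns did the libraries of the 2 groups overlap. Over all tested introns, both knockdown libraries lay below both controls in 24.3%. The controls differed from each other most at introns 7 and 10. The same order held at each junction taken alone: at the 5′ junction of intron 8 the fraction split was 0.824 and 0.738 in controls against 0.273 and 0.184, and at its 3′ junction it was 0.878 and 0.861 against 0.259 and 0.200.

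Further along Dgat1 the change was smaller. Intron 14 (chr15:76386932-76387018, 87 nt) went from 0.862 and 0.893 to 0.626 and 0.667 and was called. Intron 15 (89 nt) was at 0.941 and 0.917 in the controls and at 0.870 and 0.898 after Son siRNA. Intron 16 (103 nt) was at 0.887 and 0.723 in the controls and at 0.647 and 0.722. Neither of these was called, although the knockdown libraries lay below the controls in both. Introns 14 and 15 flank exon 15 and are nearly equal in length, and their means changed by -0.231 and -0.0453. The difference between them was not tested. Intron 1 (4901 nt), listed in 3 libraries and not tested, was at 0.836 and 0.848 in the controls and 0.702 in the first knockdown library.

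The loss of split reads followed the same map. At introns 7, 8, 9 and 10 the split reads, scaled to library totals, were at 23.2%, 14.4%, 16.5% and 14.7% of the control mean. At introns 14, 15 and 16 they were at 59.8%, 73.7% and 74.8% of it. Split and unsplit reads together at introns 7 to 10 were at 70.4%, 52.5%, 57% and 58.8%, so reads still covered those junctions. In these scaled reads the controls differed widely at introns 9 and 10. Intron 9 had 14.1 and 6.95 in the controls and 5.47 and 6.54 after Son siRNA. Intron 10 had 13.3 and 7.33 against 5.21 and 6.92. Scaled split reads alone were 12.6 and 5.92 against 1.74 and 1.33 at intron 9. At intron 10 they were 10.9 and 4.61 against 1.34 and 0.947. For all reads at introns 7 and 8 the controls were closer, at 16.1 and 16.3 and at 16.7 and 14.7. Over the 7 introns Dgat1 had 2150 split and 377 unsplit reads in the controls and 829 split and 823 unsplit reads after Son siRNA.

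**Figure D1:**
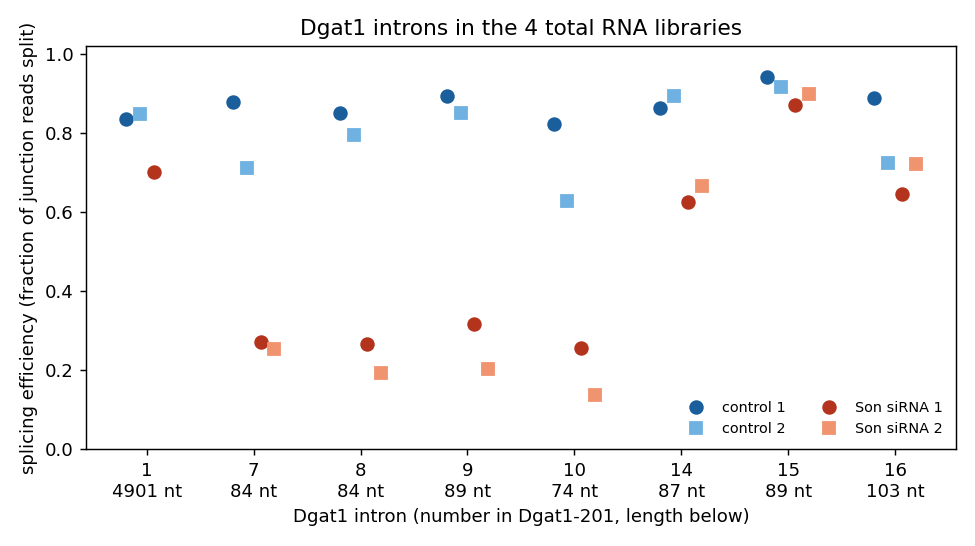
Splicing efficiency (y axis, fraction of junction reads that are split) of each listed Dgat1 intron (x axis, number and length) in the 4 total RNA libraries, 1 point per library. At introns 7 to 10 the knockdown libraries sit between 0.137 and 0.317 and the controls between 0.628 and 0.894, while at intron 15 the controls are at 0.941 and 0.917 and the knockdown libraries at 0.870 and 0.898.

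By the distance between splicing efficiencies per gene in the 4 libraries, the genes most like Dgat1 among 8242 compared were Amdhd2, Gnptg, Pgghg, Pkn3 and Cdkn1c. Amdhd2, a deacetylase of amino sugars, was nearest, at 0.852 and 0.801 in the controls and 0.475 and 0.435 after Son siRNA, with a distance of 0.0650. Dgat1 as a whole was at 0.878 and 0.801 against 0.523 and 0.470. The distances of the other 4 ran from 0.0819 to 0.118. None of these 5 belongs to the lipid lists described further on.

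Tecr (ENSMUSG00000031708, chromosome 8, minus strand) encodes the reductase of the last step of the elongation cycle for very long chain fatty acids. Of 4 tested introns 1 was called, against 1.71% of all tested introns. Intron 7 (chr8:84299383-84299469, 87 nt) went from 0.982 and 0.981 to 0.909 and 0.880, with a log2 odds ratio of 2.63 (standard error 0.34). Intron 10 (77 nt) stayed nearly fully spliced, at 0.996 and 0.997 in the controls and 0.997 and 0.990 after Son siRNA. The introns on either side of exon 4 were not among those listed for Tecr, so total RNA gives no value for them. D830024N08Rik and Gm18001 overlap Tecr on the opposite strand, and the strand of counting is not given in the sources used here. Gm45823 overlaps Tecr on the same strand.

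The long reads of Tecr shifted from the form with exon 4 to the form without it. Tecr-201, with the exon, had 429 control reads and 103 after Son siRNA, a log2 ratio of -1.34 with a 95% interval from -1.67 to -1.03. Tecr-203, without it, had 115 and 107 reads, a log2 ratio of 0.61 with an interval from 0.22 to 1.0. Reads were counted per transcript model, so whether each read crosses exon 4 is not given. Among the reads assigned to models that join exons 3 to 5, the share of models with exon 4 was 78.6% in the control (Wilson 95% interval 74.9% to 81.8%). After Son siRNA it was 48.1% (41.5% to 54.8%). The intervals do not meet, and they cover counting error only, since each group had 1 long-read library and no test was possible. The exon has a length divisible by 3, so both forms can keep the same reading frame.

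The shift in Tecr was also set beside other genes. Tecr-201 made up 70.9% of all Tecr reads in the control and 40.6% in the knockdown library. Of the 2339 genes with at least 100 long reads in both libraries, no other gene had a larger fall in the share of its leading transcript, and the median absolute shift was 1.43 percentage points. Since the gene was chosen with results of these libraries known, its place in this order is a description.

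**Figure D2:**
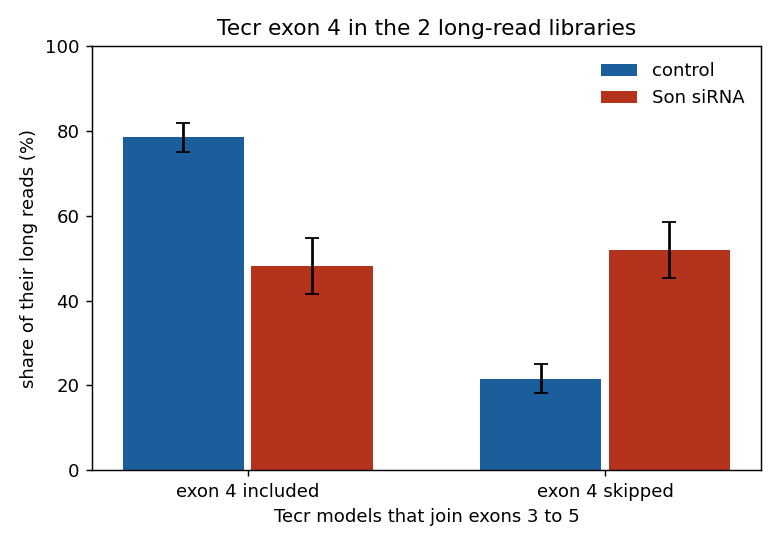
Share (y axis, percent) of models that include or skip exon 4, among long reads assigned to Tecr models joining exons 3 to 5. Values are for the control and the Son siRNA library, with Wilson 95% intervals as bars. The share of models with exon 4 goes from 78.6% to 48.1%.

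The 3 enzymes that make palmitate did not all receive the same call, and the difference among them was not tested. Acly (ENSMUSG00000020917, chromosome 11, minus strand), which cleaves citrate to acetyl-CoA, was at 0.982 and 0.983 over its 25 introns in the controls and at 0.984 and 0.983 after Son siRNA. Acaca (ENSMUSG00000020532, chromosome 11, plus strand), which makes malonyl-CoA, was at 0.970 and 0.971 against 0.972 and 0.969. In Acaca the groups overlapped, and in Acly both knockdown libraries lay just above both controls. Of their 74 tested introns 0 were called, beside 1.71% of all tested introns and 0.477% of those over 300 nt. The count of 0 is near these shares. At an unadjusted p under 0.05, edgeR gave 2 Acaca introns lower and 1 higher, DESeq2 gave 0 lower and 1 higher, and neither gave any in Acly. At an adjusted p under 0.05, DESeq2 called 0 in either gene.

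Single introns of both genes moved little and in both directions. In Acly the mean changes ran from -0.0279 at an intron of 2397 nt (number 14 of Acly-202) to 0.0411 at intron 18, which was at 0.803 and 0.793 in the controls and 0.844 and 0.834 after Son siRNA. In Acaca they ran from -0.0663 to 0.0646. The highest was at intron 52 (8965 nt), at 0.862 and 0.925 in the controls and 0.942 and 0.974 after Son siRNA. The lowest with at least 50 reads in every library was intron 47, which changed by -0.0335. Gm11437 overlaps Acaca on the opposite strand and Gm37391 on the same strand. Mir7116 overlaps Acly on the same strand.

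Fasn (ENSMUSG00000025153, chromosome 11, minus strand), the synthase that builds palmitate, had small falls spread over many introns. Over 37 introns its splicing efficiency was 0.977 and 0.970 in the controls and 0.961 and 0.956 after Son siRNA. In 22 of the 37 both knockdown libraries lay below both controls, against 24.3% of all tested introns. In 0 did both lie above, against 13.1%. The called introns were 10, 14, 16, 24 and 25, and intron 24 (chr11:120704155-120704231, 77 nt) went from 0.980 and 0.971 to 0.953 and 0.913. Intron 14 went from 0.995 and 0.994 to 0.989 and 0.987. Intron 10 went from a mean of 0.974 to 0.934, intron 16 from 0.980 to 0.954 and intron 25 from 0.969 to 0.917. The largest mean fall, -0.0528 at intron 31 (85 nt, 0.982 and 0.986 against 0.925 and 0.938), had fewer reads and was not called. The lower call of Fasn as a gene was lost when any 1 of the 4 libraries was left out, with log2 odds ratios from 0.46 to 0.85 and, in edgeR, adjusted p from 0.0727 to 0.826.

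Srebf1 and Srebf2, the regulators, also received different calls, and the difference between them was not tested. Srebf1 (ENSMUSG00000020538, chromosome 11, minus strand) was at 0.941 and 0.929 over 10 introns in the controls and 0.889 and 0.890 after Son siRNA. Its called intron was 14 (chr11:60092539-60092621, 83 nt), which went from 0.961 and 0.971 to 0.831 and 0.841. In 9 of its 10 introns both knockdown libraries lay below both controls, against 24.3% of all tested introns. Srebf1 as a gene was called lower, and that call was lost without either control or without the second knockdown library (edgeR, adjusted p 0.572, 0.103 and 0.0589). Srebf2 (ENSMUSG00000022463, chromosome 15, plus strand) was at 0.961 and 0.958 in the controls and 0.960 and 0.949 after Son siRNA. Of the 14 introns of Srebf2 0 were called, near the 1.71% of all tested introns. At an unadjusted p under 0.05 it was 0 in edgeR and in DESeq2. Changes in Srebf2 ran from -0.0685 at intron 12 to 0.0304 at intron 7. Rai1 overlaps Srebf1 on the opposite strand, and Mir6921 and Mir6922 on the same strand. Gm49502 and Mir33 overlap Srebf2 on the same strand.

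Pltp (ENSMUSG00000017754, chromosome 2, minus strand), a plasma protein that transfers phospholipids, had lower mean splicing efficiency in every tested intron. Of the 15 introns of Pltp-201, 12 were listed. In all 14 both knockdown libraries lay below both controls, against 24.3% of all tested introns. Of the 14, 7 were called, against 1.71% of all tested introns. These were numbers 2, 4, 9, 12, 13, 14 and 15. Intron 4 (chr2:164696342-164696846, 505 nt) went from 0.953 and 0.923 to 0.865 and 0.785. Intron 15 (285 nt) went from 0.945 and 0.924 to 0.826 and 0.819. Intron 12, at 3897 nt the longest of the 24 called introns, went from 0.980 and 0.973 to 0.895 and 0.894. The called introns 2, 9, 13 and 14 went from means of 0.992, 0.981, 0.983 and 0.949 to 0.956, 0.908, 0.926 and 0.865. The largest mean fall was in an intron of 272 nt (number 4 of ENSMUST00000148912), at 0.878 and 0.753 against 0.715 and 0.573, which was not called. Ctsa overlaps Pltp on the opposite strand.

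Acads (ENSMUSG00000029545, chromosome 5, minus strand) encodes the short-chain acyl-CoA dehydrogenase of mitochondrial fatty acid oxidation. Of 7 tested introns 5 were called, against 1.71% of all tested introns. These were numbers 4, 6, 7, 8 and 9. Intron 4 (chr5:115250451-115250823, 373 nt) went from 0.895 and 0.918 to 0.704 and 0.615. Intron 9 (87 nt) went from 0.963 and 0.970 to 0.809 and 0.841. Introns 6, 7 and 8 went from means of 0.962, 0.960 and 0.976 to 0.826, 0.835 and 0.876. The 2 introns nearest the 5′ end, of 1496 nt and 4351 nt, were not called and changed by -0.0546 and -0.0177. Unsplit reads of Acads went from 186 in the controls to 411 after Son siRNA, while split reads went from 4912 to 2455.

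Summed over all introns of a gene, 6 of the 9 genes were called lower in splicing efficiency, against 6.98% of 9370 tested genes, and 0 higher, against 0.128%. DESeq2 called the same number in each direction, and 0 were higher at an unadjusted p under 0.05. The log2 odds ratios were 2.45 for Dgat1, 2.15 for Acads, 1.5 for Pltp, 1.49 for Tecr, 0.85 for Srebf1 and 0.66 for Fasn, with standard errors from 0.20 to 0.29. Those of Srebf2, Acaca and Acly were 0.17, 0.01 and -0.07. The median over all tested genes was 0.09.

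Short introns held most of the called ones. Of the introns up to 100 nt, 14 of 31 were called, against 8.28% of all tested introns of that length. Of those longer but not over 300 nt it was 7 of 36, against 5.51%, and of those over 300 nt 3 of 100, against 0.477%. The called introns had a median length of 87 nt and the others 803 nt. Acaca, Acly and Srebf2 had no tested intron up to 100 nt, and their 88 tested introns ran from 135 to 21560 nt. Not every short intron changed by much: Fasn had 15 tested introns up to 100 nt, of which 3 were called, with mean changes from -0.0528 to -0.00187. Among the 6 genes called lower, 3 of 19 introns over 300 nt were called, 2 in Pltp and 1 in Acads. The exon sequence within 100 nt of an intron had a median GC content of 55.9% at called and 54.4% at other introns of the 9 genes, and 50.5% over all tested introns.

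**Figure D3:**
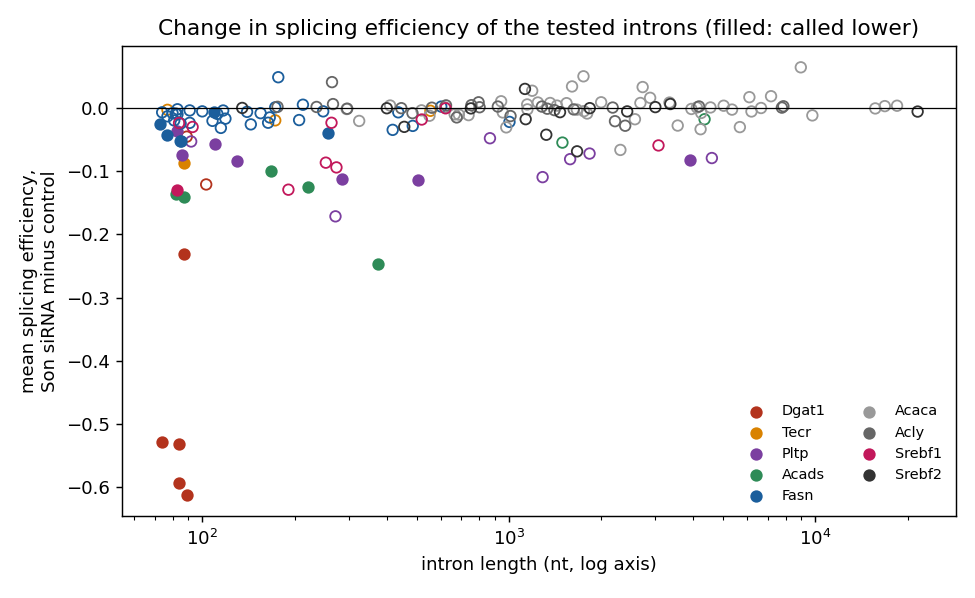
Change in mean splicing efficiency (y axis, Son siRNA minus control) against intron length (x axis, nt, log axis) for the 167 tested introns, coloured by gene, with filled points for the 24 called lower. Dgat1 introns of 74 to 89 nt reach -0.613, while the introns of Acaca, Acly and Srebf2 scatter around 0.

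Spliced RNA, measured as CPM, was lower in the same 6 genes. The split reads behind CPM also enter splicing efficiency, so an intron that is kept lowers both. The measures are not independent, and the shared 6 genes are not a separate finding. 6 of the 9 were called with fewer spliced reads by edgeR, against 6.76% of 9474 tested genes, and 0 with more, against 1.96%. DESeq2 also called 6 fewer and 0 more, and none was higher at an unadjusted p under 0.05 in either tool. Levels depend on how many introns of a gene are listed, so they are compared here within a gene only.

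Dgat1 had a CPM of 46.6 and 34.8 in the controls and 17.3 and 14.9 after Son siRNA, a log2 fold change of -1.34 (standard error 0.16). From its best covered intron alone, intron 15, the log2 fold change of Dgat1 was -0.50 and was not called. The drop in Dgat1 therefore differed along the gene, as the split reads by intron above show. Pltp had 480 and 449 in the controls and 212 and 224 after Son siRNA, a log2 fold change of -1.09 (standard error 0.07). Acads had 98.1 and 93.7 against 51.2 and 46.4, a log2 fold change of -0.97 (standard error 0.10). Both genes were near 50% of their control mean, at 47.0% and 50.9%.

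Tecr had a CPM of 442 and 420 in the controls and 272 and 222 after Son siRNA, a log2 fold change of -0.80 (standard error 0.09). Fasn had 2115 and 2146 against 1572 and 1559, a log2 fold change of -0.44 (standard error 0.06). Srebf1 had 109 and 116 against 85.5 and 82.8, a log2 fold change of -0.42 (standard error 0.09). These 3 genes kept 57.4%, 73.5% and 74.8% of their control mean. The Srebf1 call was lost without either control library (edgeR, adjusted p 0.0640 and 0.211), and both the Fasn and the Srebf1 call were lost when the best covered intron stood for the gene, at log2 fold changes of -0.38 and -0.18.

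The other 3 genes stayed close to their controls. Acaca had a CPM of 585 and 556 in the controls and 569 and 578 after Son siRNA, with overlapping groups and a log2 fold change of 0.01. Acly had 1448 and 1490 against 1390 and 1403, a log2 fold change of -0.07. Srebf2 had 274 and 273 against 250 and 237, a log2 fold change of -0.17 (standard error 0.08). In Acly and Srebf2 the knockdown libraries lay below the controls, but neither was called, and Srebf2 was called when the first knockdown library was left out (edgeR, adjusted p 0.00930).

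**Figure D4:**
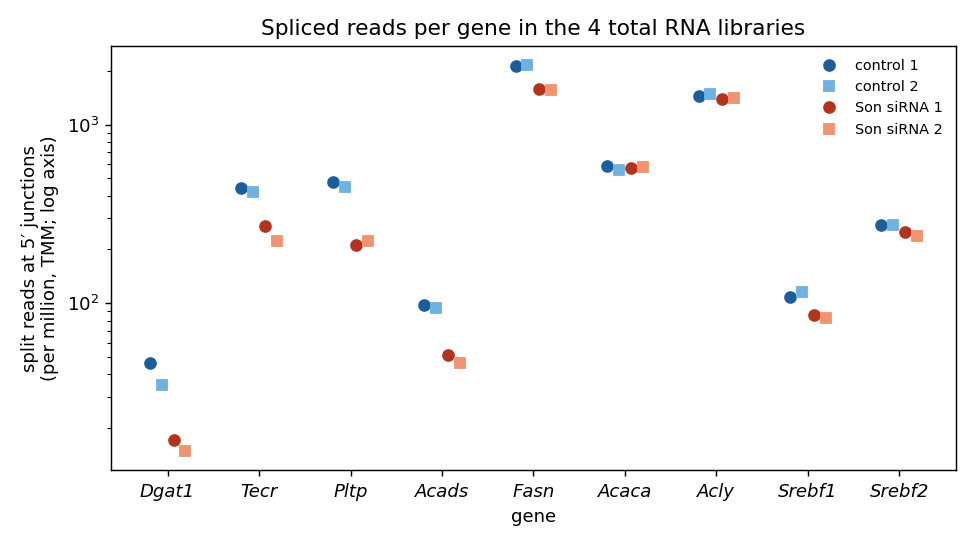
CPM of split reads at 5′ junctions (y axis, log axis) for each of the 9 genes in the 4 total RNA libraries, 1 point per library. Both knockdown libraries lie well below both controls in Dgat1, Tecr, Pltp and Acads, and among the controls in Acaca.

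Long reads gave a further measure of polyadenylated RNA, with 1 library per group and no test. Of the 9 genes, 2 were at least 2-fold lower after Son siRNA, against 4.16% of 9616 genes with at least 20 reads, and 0 at least 2-fold higher, against 2.2%. Pltp had 270 control reads and 67 after Son siRNA, a log2 ratio of -1.29 (interval -1.70 to -0.90). Srebf1 had 55 and 16, a log2 ratio of -1.03 (interval -1.97 to -0.24). Fasn had 275 and 112, a log2 ratio of -0.58 (interval -0.91 to -0.26), and Tecr as a whole 605 and 254, a log2 ratio of -0.53 (interval -0.75 to -0.32). For these 4 genes the counting interval of the ratio lay below 0. The share of all genes with such an interval is not given here, so this count has no background.

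Depth limited the next genes. Dgat1 had 24 and 7 reads, a log2 ratio of -0.99 with an interval from -2.52 to 0.20, so a change was not detectable at this depth. Dgat1-201, the coding form, had 19 of the 24 reads in the control and 4 of the 7 after Son siRNA. Acads had 75 and 36 reads, a log2 ratio of -0.33 (interval -0.96 to 0.25). The -0.97 (standard error 0.10) of Acads spliced reads in total RNA lies just outside this interval. Acaca had 93 and 50 reads, a log2 ratio of -0.17 (interval -0.70 to 0.33).

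Acly and Srebf2 were the best covered of the genes near 0. Acly had 558 and 341 reads, a log2 ratio of 0.01 (interval -0.19 to 0.20), and its main forms Acly-203 and Acly-201 were at -0.05 and 0.11. Srebf2 had 2055 and 1239 reads, a log2 ratio of -0.01 (interval -0.12 to 0.09). Most Srebf2 reads, 1946 and 1195, were assigned to Srebf2-205, a model of 1981 nt with 4 exons that GENCODE classes as a retained intron. The full coding form Srebf2-201 had 93 and 36 reads, a log2 ratio of -0.64 (interval -1.25 to -0.08). The Srebf2 total is thus set by the short model, which made up 94.7% and 96.4% of the reads.

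Of 20 transcripts of the 9 genes with at least 20 reads, 5 were at least 2-fold lower, against 5.8% of 13807 transcripts, and 0 at least 2-fold higher, against 3.32%. These were Pltp-203 at -1.97, Dgat1-201 at -1.40, Pltp-201 at -1.35, Tecr-201 at -1.34 and Srebf1-201 at -1.08, and of these only the interval of Dgat1-201 (-3.55 to 0.06) included 0. Pltp-202 was at -0.82 (interval -2.14 to 0.26). Fasn-201 was at -0.72 (interval -1.08 to -0.37) and Fasn-205 at 0.06 (interval -1.0 to 1.03), and the share of Fasn-201 in Fasn reads was 90.5% in the control and 82.1% in the knockdown library. Acaca-202, the leading form of Acaca with 66 and 26 reads, was at -0.61 (interval -1.34 to 0.05). The minor forms were Tecr-214 at -0.64, Tecr-202 at 0.60, Acaca-201 at 0.21, Acly-207 at 0.04 and Acly-202 at -0.67. All 5 of these intervals included 0, as did that of Acads-201, the main form of Acads, at -0.33.

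**Figure D5:**
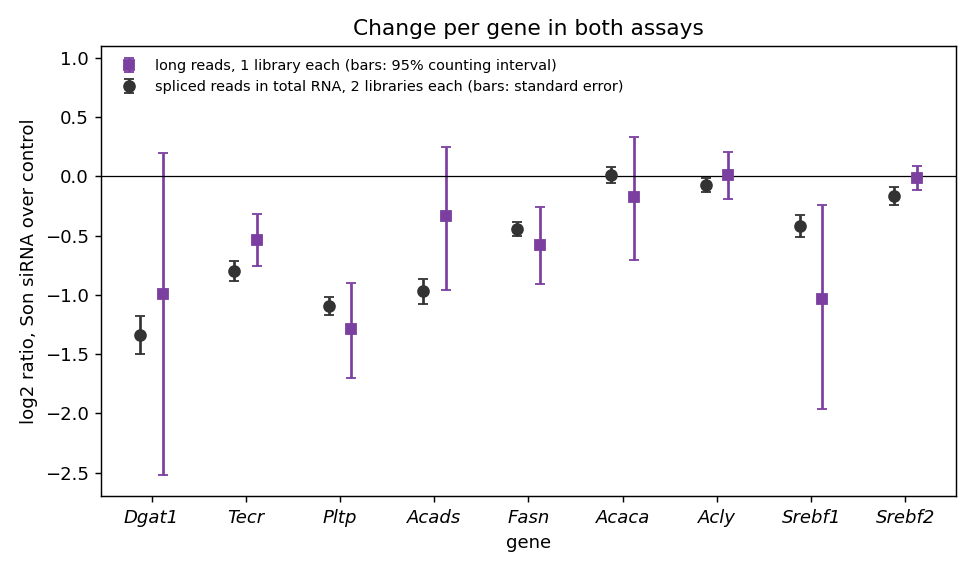
Log2 ratio of Son siRNA over control (y axis) per gene in total RNA (circles, spliced reads, 2 libraries per group, bars are standard errors) and in long reads (squares, 1 library per group, bars are 95% counting intervals). Pltp is at -1.09 and -1.29, and Acly at -0.07 and 0.01.

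The other lipid genes were taken from 6 lists chosen by function, with the 9 genes left out, and tested with all genes. Their counts stand beside the shares over all tested genes, which were 6.98% lower and 0.128% higher in splicing efficiency, and 6.76% with fewer and 1.96% with more spliced reads. In fatty acid synthesis and elongation, 2 of 22 tested genes were called lower in splicing efficiency (6.98% of all genes) and 0 higher, and 4 of 24 had fewer spliced reads (6.76% of all genes) and 0 more. Fads2, a desaturase, fell in splicing efficiency from 0.971 ± 0.001 to 0.937 ± 0.008 (SD, n = 2 libraries each) and in spliced reads by 1.03 on the log2 scale (edgeR, adjusted p = 1.6e-06). Slc25a1, the citrate carrier that supplies Acly, fell in splicing efficiency from 0.972 to 0.931 and by 0.50 in spliced reads on the log2 scale (edgeR, adjusted p = 0.00314). Scd1, the desaturase that makes oleate, fell by 0.48 in spliced reads (edgeR, adjusted p = 0.0107) and was not called in splicing efficiency. Its relative Scd2, named after its value was seen, fell by 0.42 (edgeR, adjusted p = 0.0058). The list's median log2 fold change of spliced reads was -0.12, beside 0.01 over all tested genes.

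In triglyceride and phospholipid synthesis, 2 of 30 genes were called lower in splicing efficiency and 0 higher. Of 31, 2 had fewer spliced reads and 1 more. Both counts of 2 are near the shares over all genes, 6.98% and 6.76%. Ptdss2, which makes phosphatidylserine, fell in splicing efficiency from 0.882 ± 0.010 to 0.702 ± 0.012 and in spliced reads by 1.04 on the log2 scale (edgeR, adjusted p = 1.8e-06). Pcyt2, of phosphatidylethanolamine synthesis, fell from 0.937 ± 0.003 to 0.828 ± 0.001 and by 0.59 in spliced reads. Gpam, the mitochondrial acyltransferase that starts glycerolipid synthesis, rose by 0.47 in spliced reads (edgeR, adjusted p = 0.00853). The list's median log2 odds ratio was 0.09, the value over all tested genes.

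In cholesterol synthesis, 1 of 21 genes was called lower in splicing efficiency (6.98% of all genes), 0 higher, and 4 of 21 had fewer spliced reads (6.76% of all genes) and 0 more. Nsdhl and Fdps, an enzyme that makes farnesyl pyrophosphate, fell by 0.40 and 0.37 in spliced reads on the log2 scale, and neither was called in splicing efficiency. The gene called lower was Tm7sf2, a sterol reductase, whose log2 odds ratio was 2.44 (standard error 0.53) and which fell by 2.87 in spliced reads (edgeR, adjusted p = 3.1e-07). Tm7sf2 was named after its value was seen, since it had under 100 spliced reads on average. Among the genes that control SREBP activity, 3 of 18 were called lower in splicing efficiency (6.98% of all genes) and 0 higher, and 2 had fewer spliced reads (6.76% of all genes) and 0 more. Prkag1, a subunit of the AMP-activated kinase, fell in splicing efficiency from 0.924 ± 0.013 to 0.766 ± 0.002 and by 0.93 in spliced reads. Scap, which escorts SREBPs to the Golgi, fell from 0.923 ± 0.008 to 0.867 ± 0.036 and by 0.44 in spliced reads. Nr1h2, a liver X receptor, fell from 0.920 ± 0.007 to 0.831 ± 0.030, and its spliced reads were not called.

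In fatty acid oxidation, the pathway of Acads, 4 of 25 genes were called lower in splicing efficiency (6.98% of all genes) and 0 higher, and 4 had fewer spliced reads (6.76% of all genes) and 1 more (1.96%). Acaa1a, a peroxisomal thiolase, fell from 0.967 ± 0.005 to 0.843 ± 0.080 and by 1.5 in spliced reads. Cpt1c, a carnitine palmitoyltransferase, fell from 0.725 ± 0.047 to 0.479 ± 0.039 and by 0.62 in spliced reads. Gcdh, a dehydrogenase of amino acid breakdown, fell from 0.891 ± 0.015 to 0.810 ± 0.005 and by 0.53 in spliced reads. Acadvl, the very long chain relative of Acads, was also called lower, from 0.378 ± 0.008 to 0.254 ± 0.068, and fell by 0.67 in spliced reads. Most junction reads of Acadvl were thus unsplit in the controls already. Acad11, another relative, rose by 0.56 in spliced reads. In lipid transfer and lipoproteins, the group of Pltp, 1 of 10 was called lower in splicing efficiency, near the 6.98% of all genes, and 0 higher. That gene was Lrp1, a lipoprotein receptor, which fell from 0.972 ± 0.004 to 0.95 ± 0.013. Of 11, 0 had fewer spliced reads (6.76% of all genes) and 1 more (1.96%), which was Abca1, a cholesterol exporter, up by 0.25.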

How the data were processed

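The 9 genes and the 6 gene lists were chosen with earlier results of these data known. The total RNA tables deposited by the authors hold, per intron, counts of split and of unsplit reads at the 5′ and 3′ junction and a splicing efficiency made with SPLICE-q per the labels, a fraction from 0 to 1. Checked on the tables, this fraction is split over all junction reads. No listed junction had under 10 reads. The Nanopore cDNA tables hold read counts per transcript, per the labels. The submitters' processing notes name GRCm39, SAMtools and minimap2. The annotation, the SPLICE-q settings, the strand of counting and the short-read aligner are not given in the sources used here. Coordinates are those of the tables.

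Rows with the same intron position were merged, and introns listed in all 4 libraries were tested. Intron numbers, exon sequences and names came from GENCODE M21, whose positions (GRCm38) were not used. Split and unsplit reads, both junctions summed, entered edgeR 4.0.16 (R 4.3.3) in a model with terms for each library, for the unsplit column and for its interaction with Son siRNA, the tested term. Split reads enter at the 5′ and again at the 3′ junction, so these counts are not independent. The model has no term for this. Each junction was also run alone, as given below. Genes were tested on their summed introns, and spliced reads per gene with TMM and edgeR's expression filter. Long reads were scaled to library totals, and a log2 ratio, given from 20 reads upwards over the pair, used a pseudocount of 0.5. Intervals are 95% Wilson intervals of shares and exact conditional intervals of ratios, covering counting error only. The models were tested on simulated data. The simulated splicing counts differed between libraries of a group by sampling alone, so that test does not cover false calls under a wider spread. The 2 controls, and the 2 knockdown libraries, differed from each other by more than sampling noise (chi-square per degree of freedom 2.90 and 9.19).

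Named in the text are Son, the 9 genes, their called introns, the intron of each with the largest fall and the largest rise in mean splicing efficiency (at least 50 junction reads in every library), transcripts with at least 20 long reads, up to 3 called genes per list and direction by size of change (mean of at least 100 spliced reads), and the 5 genes nearest to Dgat1. Cell type markers and other Dgat1 introns were named besides, and Scd2 and Tm7sf2 after their values were seen. A gene of the lists that the rule would name is not reported here. Alternatives were other junctions, filters, scalings, tools (DESeq2 1.42.0, limma 3.58.1), the replicate block and leaving out each library.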

Additional observations from a re-analysis of the deposited data

How the results depend on the processing

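The 24 called member introns all kept their direction under the alternatives run, and all 24 were called again with looser or stricter read minimums and with introns listed in fewer libraries. Member introns called lower numbered 8 from the 5′ junction alone, 10 from the 3′ junction alone, 14 with DESeq2 and 0 with limma (28 at an unadjusted p under 0.05), and from 4 to 28 when a library was left out. Over all introns, those called lower, 1084 in the main analysis, numbered 231, 319, 283 and 0 under the same 4 settings (limma: 4645 at an unadjusted p under 0.05) and from 163 to 1394 without a library. Those called higher, 28 in the main analysis, numbered 1, 3, 2 and 0 under these 4 settings, 56 with split and unsplit reads scaled separately, and from 3 to 33 without a library. Separate scaling shifted the log2 odds ratios, at the median, by -0.14 over introns and by -0.12 over genes. Replicate numbers are shared between groups, but same-numbered libraries did not deviate together (correlation 0.0085 over introns, 0.024 over genes, 2 pairs). With the replicate block 30 member introns were called lower, and 1580 lower and 46 higher over all introns. Genes called lower in splicing efficiency, 654 in all, ranged from 176 to 695 without a library, and member genes from 4 to 5. With the best covered intron, 253 genes in all and 3 member genes had fewer spliced reads, against 640 and 6. Without a library they ranged from 344 to 1287 and from 5 to 7. The log2 odds ratio of Acaca changed sign with separate scaling (-0.12) and without the second control or the second knockdown library, ranging from -0.0849 to 0.0990 without a library. That of Srebf2 did so without the second knockdown library (range -0.00730 to 0.358), and that of Acly from the 5′ junction alone (0.0114). The log2 fold change of spliced reads changed sign for Acaca with the best covered intron (-0.00528) and without the second control or the second knockdown library (range -0.0297 to 0.0433), and for Acly with the best covered intron (0.16). None of these values was called, and the cause was not tested. Without a library, the lone sample of its group is assumed to vary like the other group. The long-read log2 ratios of the 9 genes stayed within their intervals in the 26 alternatives that could be computed.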
